A study of Mus musculus with 9 samples.

Results

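The genes described here are the collagens and a set of stromal genes read in cultures of bone marrow derived macrophages (BMDMs). They were taken from the deposited count table by name: every row whose symbol has the form of a collagen alpha chain gene, and 13 listed genes of connective tissue cells, each kept at 10 or more reads summed over the 9 libraries. The rule kept 48 of 53465 rows, 35 of the 44 collagen symbols and 13 of the 13 listed genes. Col28a1 was just inside with 10 reads, and Col25a1 with 7 and Col6a5 with 6 were just outside. The libraries were 3 untreated cultures (UNX), 3 cultures given CO-CM and 3 given PH-CM. CO-CM is medium conditioned by pulmonary artery adventitial fibroblasts of control calves and PH-CM is medium conditioned by those of calves with hypoxia-induced pulmonary hypertension. All 9 cultures came from bone marrow of male wild-type C57BL/6 mice (of the J substrain per the study's methods) grown in medium with CSF1 at 50 ng/ml, the growth factor that turns marrow cells into macrophages. The age of the mice is not given in the sources used here. Each conditioned medium was pooled from several fibroblast populations. The sources used here do not say whether each repeat had its own pool, so a replicate cannot be taken as a repeat of the calf. One text of the labels gives a treatment of 16 h and another 24 h, the study's methods give a further time for the RNA, and whether the conditioned media held CSF1 is not given in the sources used here. No culture given fibroblast medium that had not been on cells was analysed here, so in a comparison with UNX the change of medium and what the fibroblasts released cannot be told apart.

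Collagens are secreted triple helices that carry most of the strength of connective tissue. Fibrillar collagens (types I, II, III, V, XI, XXIV and XXVII) form fibrils, fibril-associated collagens decorate them, and type IV forms the sheet of basement membranes. Fibroblasts, osteoblasts and smooth muscle cells are their best-known sources, and macrophages are better known for taking collagen up and breaking it down. In pulmonary hypertension the adventitia thickens with collagen, and fibroblasts and macrophages lie side by side there.

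The collagen IV genes lie in head-to-head pairs that share the DNA between their starts, which is why their start regions are shown first, with that of Col11a1, the gene with the largest rise. Col4a6 and Col4a5 face away from each other on chromosome X with 1308 bp between their gene models, and Col4a1 and Col4a2 on chromosome 8 overlap by 22 bp at their starts. The stretches come from RefSeq (GRCm38.p6). Those of Col4a5, Col4a6 and Col11a1 lie before the gene starts and are written on the strand of the gene. Capitals mark matches, on either strand, to the TATA box TATAAA, the CCAAT box CCAAT, the GC box GGGCGG or the AP-1 site TGANTCA. The Col4a5 stretch ends before the annotated exon and has 1 CCAAT match. The Col4a6 stretch has 1 GC box match, the Col11a1 stretch has 1 CCAAT and 2 GC box matches, and no matches overlapped. The 22 shared bases of Col4a1 and Col4a2 lie inside both gene models, are written on the strand of Col4a2 and hold 1 GC box match.
Col4a5 (chrX:141475169-141475384, plus strand): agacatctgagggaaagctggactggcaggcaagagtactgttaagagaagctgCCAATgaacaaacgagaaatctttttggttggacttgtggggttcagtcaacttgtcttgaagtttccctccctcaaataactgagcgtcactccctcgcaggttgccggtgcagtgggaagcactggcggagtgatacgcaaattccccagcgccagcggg
Col4a6 (chrX:141474077-141474326, minus strand): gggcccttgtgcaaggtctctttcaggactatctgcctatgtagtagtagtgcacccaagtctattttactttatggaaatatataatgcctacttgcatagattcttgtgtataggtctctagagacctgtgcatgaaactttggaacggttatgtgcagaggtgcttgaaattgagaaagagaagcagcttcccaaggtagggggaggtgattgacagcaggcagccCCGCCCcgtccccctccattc
Col11a1 (chr3:114030290-114030539, plus strand): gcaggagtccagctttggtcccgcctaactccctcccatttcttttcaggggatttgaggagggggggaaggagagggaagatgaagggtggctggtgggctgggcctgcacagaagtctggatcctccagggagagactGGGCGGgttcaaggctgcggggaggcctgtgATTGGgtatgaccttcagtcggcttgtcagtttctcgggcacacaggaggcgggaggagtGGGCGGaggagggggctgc
Col4a1 and Col4a2 (chr8:11312805-11312826, plus strand): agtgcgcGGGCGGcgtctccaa
Of the 48 genes, 35 matched a promoter entry by symbol. Over the 250 bases before the start, the GC box was found in 54.3% of these 35 and in 32.9% of 27025 promoters, the CCAAT box in 31.4% and 34.5%, the TATA box in 11.4% and 13%, and the AP-1 site in 2.9% and 6.9%. A match of letters is a description of the window and not a binding site.

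Libraries held between 62017933 and 84314201 counted reads, and CPM below are these counts on a common library size set by TMM. In lists of values, the 3 values of a group are those of replicates 1, 2 and 3. The cultures carried the macrophage identity of their label, with 10 of 10 macrophage markers (Csf1r, Adgre1, Cd68, Lyz2 and others) above the filter on low counts and a summed level of 12400 to 13200 CPM in UNX, 19800 to 20800 in CO-CM and 22400 to 24200 in PH-CM. Most of that was Lyz2, at group means of 7241, 12790 and 15180 CPM. In CO-CM against UNX, 6 of the 10 were called higher (28.0% of all genes tested). Cd14 was the 1 called lower there (28.9% of all genes), at log2 -0.82 ± 0.09, FDR 1.77e-05. In PH-CM against UNX, 9 were called higher and 0 lower (31.3% and 31.7% of all genes). No library of a group was a repeat of another, since the chi-square per gene of their counts was at least 10.61. Most counts under 20 were even (81.42% to 83.82% of them per library), so low counts came mostly in pairs and hold fewer independent observations than reads.

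Stromal transcripts were already present in the untreated cultures. Per length, the highest were Acta2, the smooth muscle actin, at 21.6 ± 3.71 RPKM (SD, n = 3), Col1a1 at 18.0 ± 2.55 and Col18a1 at 16.7 ± 1.99. These 3 stood above the median of the 11950 genes tested, which was 6.69 RPKM in UNX, and Sparc at 7.13 ± 0.790 lay close to it. Col1a2 followed at 6.28 ± 0.745 and Bgn, the proteoglycan biglycan, at 5.47 ± 0.708. In the order of these 6 genes, Acta2 and Col1a1, Col1a1 and Col18a1, Sparc and Col1a2, and Col1a2 and Bgn did not differ beyond their SD, while Sparc and Bgn did. Col6a1, Lox, Col4a5, Loxl1 and Fstl1 came next, between 2.23 ± 0.300 RPKM for Fstl1 and 3.58 ± 0.964 for Col6a1. Markers that usually accompany these genes in fibroblasts were far lower, with Dcn (decorin) at 0.280 ± 0.157 RPKM and Pdgfra at 0.180 ± 0.0338. Lum (lumican) and Thy1 had at most 4 reads in any UNX library.

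**Figure D1:**
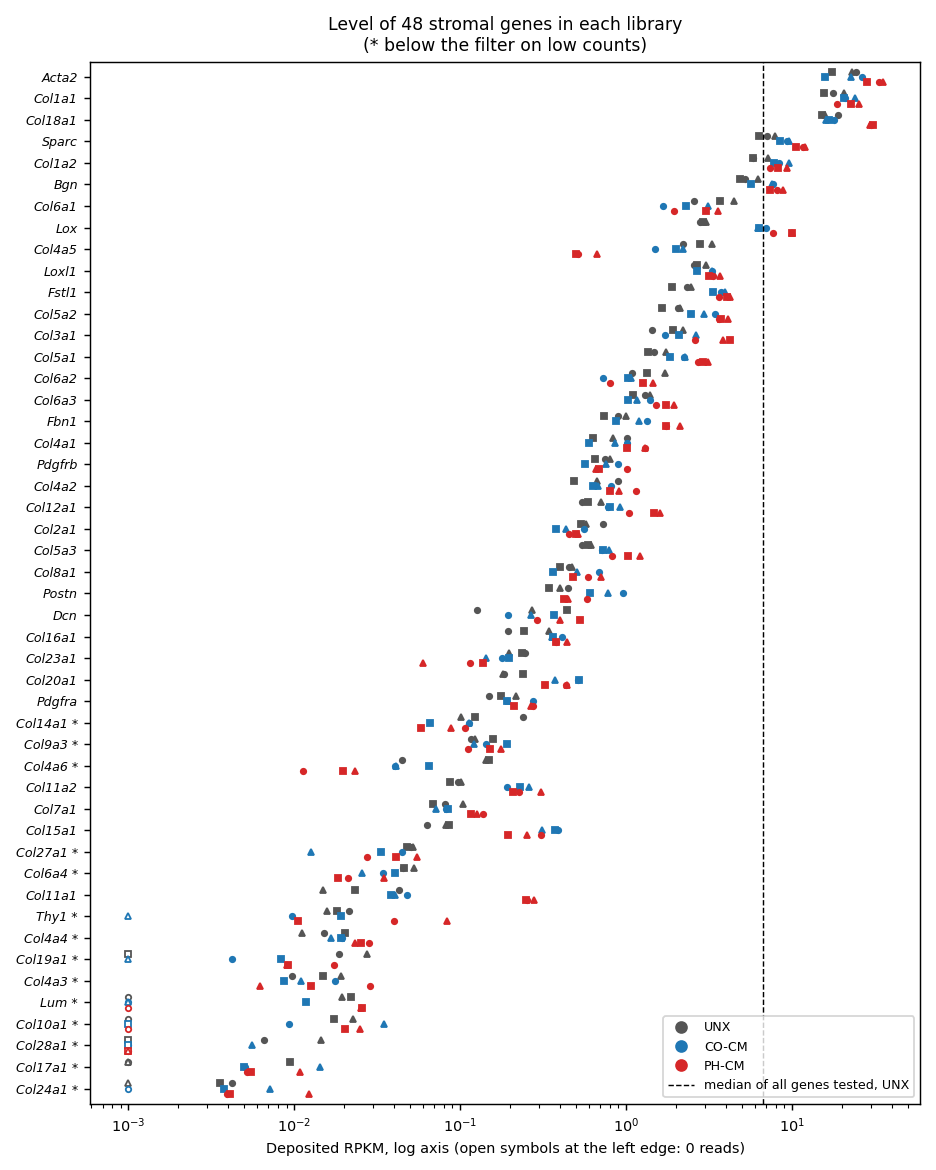
Deposited RPKM (log axis) of the 48 genes in each of the 9 libraries, ordered by the mean level in UNX. Colours mark the group, circles, squares and triangles mark replicates 1, 2 and 3, and the dashed line is the median of all genes tested in UNX (6.69 RPKM). Acta2, Col1a1 and Col18a1 lie above that line in every library, and the 14 genes with an asterisk are below the filter on low counts.

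Summed over the 48 genes, the level was 601.5 ± 58.5 CPM (SD, n = 3) in UNX, 747.2 ± 49.9 in CO-CM and 941.8 ± 81.4 in PH-CM. With TMM scaling the ranges of the 3 groups did not overlap, with 548.6 to 664.3 CPM in UNX, 695 to 794.5 in CO-CM and 858.3 to 1021 in PH-CM. With 3 against 3 libraries an exact permutation test cannot go below p = 0.1, and no test was made on the sum. As a share of the counted reads the genes made up 0.0619% in UNX, 0.0733% in CO-CM and 0.0932% in PH-CM. On that scale and in RPKM, UNX and CO-CM overlapped, since UNX replicate 3 (0.0678% and 114.6 RPKM) lay above CO-CM replicate 2 (0.0672% and 108.6 RPKM), and the PH-CM libraries still lay above all others. Col1a1 gave 19.1% of the UNX sum, Col18a1 18.9% and Col1a2 12.6%, so that 3 genes held 50.6% of it.

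Few of the other genes that mark stromal cells were present at such levels. Of 16 fibroblast and mesenchymal markers outside the 48 genes, 2 passed the filter, Prrx1 (a mesenchymal transcription factor) and Ccdc80, and Dpt, Tcf21 and Scara5 had 0 reads in all 9 libraries. The list summed to 8.2 to 9.37 CPM in UNX, 10.3 to 11.4 in CO-CM and 11.7 to 13 in PH-CM, so its sum, though not each marker, was highest in the same group as the collagens. Prrx1 was called higher in both media, with group means of 3.85, 5.49 and 6.85 CPM. Ccdc80 was not called and had its lowest mean in PH-CM (3.76, 3.65 and 3.46 CPM). The 8 osteoblast markers had summed levels of 7.2 to 8.42, 12.9 to 14.3 and 11.7 to 14.1 CPM, most of it Runx2, while Bglap, Ibsp and Dmp1 had group means under 0.05 CPM. The 8 markers of bone marrow reticular stroma summed to 158 to 209 CPM in UNX, 43.9 to 56.7 in CO-CM and 26.8 to 30.8 in PH-CM. Most of that was Nes (nestin), at group means of 145, 24.2 and 8.76 CPM, with Kitl also lower in both media and Cxcl12 higher. The 8 smooth muscle and pericyte markers summed to 24.5 to 31.6, 18.5 to 25.6 and 11.2 to 14.4 CPM, most of it Cspg4 in UNX, and the defining markers Myh11, Des and Rgs5 had group means under 0.1 CPM. Against that sum, Actg2 was called higher in PH-CM (2.32, 2.30 and 3.77 CPM), and Cnn1 (0.757, 0.829 and 1.29 CPM) and Tagln (0.336, 0.422 and 0.508 CPM) had their highest means there, Cnn1 without a call and Tagln below the filter.

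The 8 endothelial markers summed to 33.2 to 44, 16.7 to 20.7 and 55.3 to 64.4 CPM, nearly all of it Kdr, and the 7 megakaryocyte and platelet markers to 150 to 175, 109 to 137 and 219 to 270 CPM, nearly all of it Pf4. The 5 adipocyte markers stayed at or below 0.0598 CPM in sum, the 6 keratinocyte and epithelial markers at or below 0.186 and the 8 neutrophil precursor markers at or below 1.78. RNA was taken from the whole culture, so a change in the number of cells of one kind and a change in RNA per cell cannot be told apart, and the part of these markers in the results below was not tested.

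**Figure D2:**
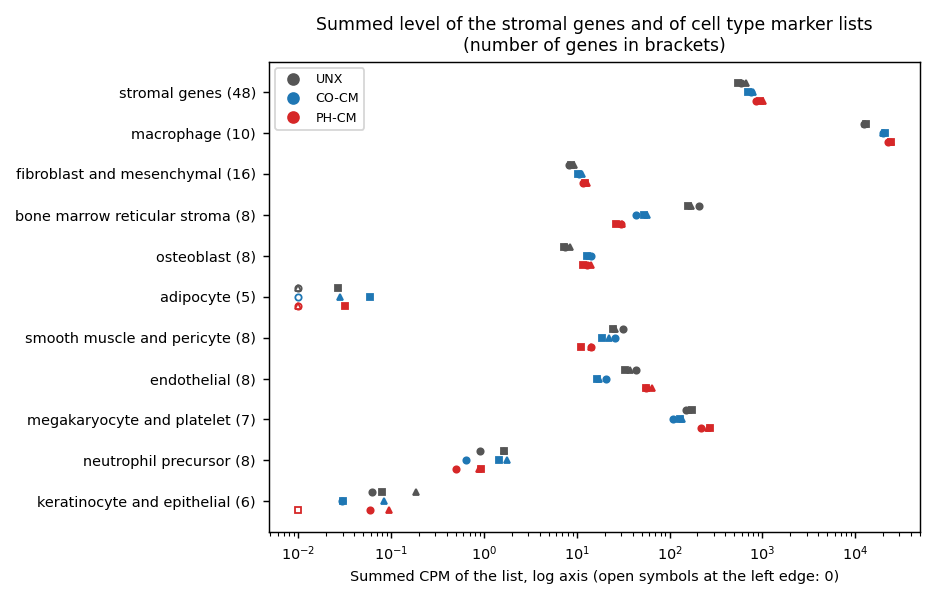
Summed CPM (log axis) of the 48 genes and of 10 cell type marker lists in each library, with the number of genes in brackets. Colours mark the group and circles, squares and triangles mark replicates 1, 2 and 3. The fibroblast list lies between 8.2 and 13 CPM in all libraries and is highest in PH-CM, and the macrophage list lies between 12400 and 24200 CPM.

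Of the genes that could be tested, more rose than fell in both media. Of the 34 that passed the filter (CPM above 1 in at least 3 libraries), a call needing an FDR up to 0.05 and a change of 1.2-fold or more, CO-CM against UNX gave 17 higher and 1 lower, where 28.0% of all genes tested were called higher and 28.9% lower (57.0% in either direction). The median log2 fold change of the 34 was 0.35, beside 0.00 over all genes tested (0.0002). PH-CM against UNX gave 25 higher and 2 lower, where 31.3% of all genes tested were called higher and 31.7% lower (63.0% in either direction), with a median of 0.63 beside 0.01 (0.0072). PH-CM against CO-CM gave 13 higher and 2 lower, where 12.2% of all genes were called higher and 15.0% lower (27.1% in either direction), with a median of 0.28 beside -0.01 (-0.0064). The 3 comparisons share libraries pairwise and are not independent of each other. The collagens alone gave 11 higher and 1 lower of 23 tested in CO-CM, 17 and 2 in PH-CM, and 9 and 1 between the media. The libraries of the compared groups did not overlap for 14 of the 34 genes in CO-CM against UNX (72.0% of all genes tested), 28 in PH-CM against UNX (77.7%) and 18 between the media (50.2%), a smaller share than of all genes in CO-CM against UNX and a slightly larger one in the other comparisons.

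Changes of 2-fold or more were fewer. They were called for 5 genes in CO-CM (6.00% of all genes tested were called higher at that threshold), namely Col15a1, Col11a2, Col20a1, Lox and Postn, and for none in the lower direction (7.85%), where Col4a5 had passed the 1.2-fold threshold. In PH-CM, 8 were higher (8.22% of all genes), namely Col11a1, Col15a1, Lox, Col11a2, Col12a1, Fbn1, Col20a1 and Col5a2, and Col4a5 and Col23a1 were lower (9.80%). Col11a1 (2.81%) and Col4a5 (2.31%) alone passed it between the media. Some genes passed the filter only through the groups where they were high, so that they had to differ to be tested. These were Col11a1 and Col7a1 through PH-CM, Col15a1, Col11a2 and Col20a1 through the treated groups, and Col23a1, called lower in PH-CM, through UNX and CO-CM. With a filter on the mean over all libraries, 32 of the genes were tested and 17 and 1, 24 and 1, and 12 and 2 were called higher and lower. Over all genes the shares were then 28% and 28.9%, 31.2% and 31.7%, and 12.1% and 15.1%. Such a filter can still admit a gene through a group where it is high, as with Col11a1 (group means of 0.334, 0.552 and 3.36 CPM). These counts therefore do not remove that selection. With the replicate number as a block, 18, 28 and 18 genes were called higher (29.1%, 32.2% and 14.0% of all genes) and 4, 3 and 4 lower (29.7%, 32.4% and 16.4%). Without UNX replicate 2 the CO-CM count of higher genes was 11 of 34, where 27% of all genes were called higher. Between the media it was 8 of 34 without CO-CM replicate 2 (11.8%) and 6 of 33 without PH-CM replicate 3 (11%). The CO-CM count of lower genes was 3 without UNX replicate 1, where 28.6% of all genes were called lower. It was 2 without CO-CM replicate 3 or PH-CM replicate 1 (28.8% and 29.8%), and 0 without UNX replicate 3 or CO-CM replicate 2 (29% and 27.9%).

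**Figure D3:**
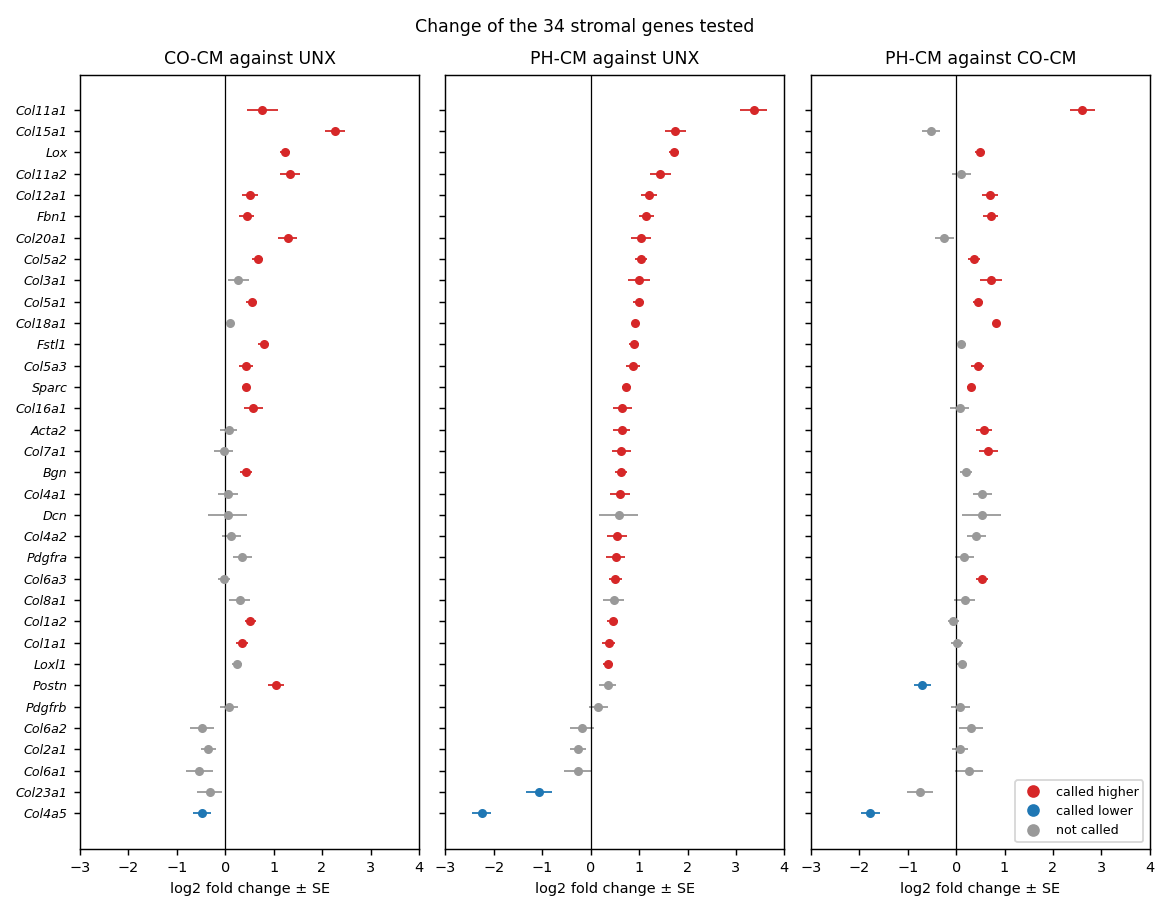
log2 fold change with its standard error for the 34 genes tested, in CO-CM against UNX, PH-CM against UNX and PH-CM against CO-CM, ordered by the second. Red marks genes called higher, blue those called lower and grey those not called. Col11a1 stands highest in PH-CM at a log2 fold change of 3.37 and Col4a5 lowest at -2.25.

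Of the fibrillar collagens, the type I chains were the most abundant. Col1a1 (chromosome 11, 94936224 to 94953042, plus strand), the main chain of type I collagen, measured 111.5, 99.7 and 133 CPM in UNX, 137, 139 and 161 in CO-CM and 122.7, 151 and 169.7 in PH-CM. It rose 1.27-fold (log2 0.35 ± 0.13, FDR 0.0314) in CO-CM, where all 3 libraries lay above UNX, and 1.29-fold (log2 0.37 ± 0.13, FDR 0.0226) in PH-CM, where they overlapped UNX. The first call was lost without replicate 1 or 2 of UNX or 3 of CO-CM or with library size alone (FDR 0.0624 to 0.138), and the second without replicate 1 or 2 of UNX or 2 or 3 of PH-CM (FDR 0.0572 to 0.0993). Col1a2, which supplies the other chain, measured 69.5, 71.0 and 87.0 CPM in UNX, 103, 100.4 and 122 in CO-CM and 90.7, 104 and 117.5 in PH-CM. It rose 1.43-fold (log2 0.52 ± 0.11, FDR 0.00219) in CO-CM and 1.37-fold (log2 0.46 ± 0.11, FDR 0.00415) in PH-CM. Both sets of treated libraries lay above UNX, and no difference between the media was called for Col1a1 (log2 0.02 ± 0.13, FDR 0.92) or Col1a2 (log2 -0.06 ± 0.11, FDR 0.71). The ratio of Col1a2 to Col1a1, both in RPKM, stayed between 0.33 and 0.40 over the 9 libraries.

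Col3a1, the type III chain of pliable tissue, measured 13.4, 18.5 and 21.4 CPM in UNX, 16.9, 21.1 and 26.4 in CO-CM and 25.4, 42.7 and 38.3 in PH-CM. It rose 1.99-fold (log2 0.99 ± 0.22, FDR 0.0022) in PH-CM and was 1.65-fold (log2 0.72 ± 0.22, FDR 0.0269) higher there than in CO-CM. PH-CM replicate 1 overlapped the CO-CM libraries, and the call between the media was lost without replicate 1 or 2 of CO-CM or 2 or 3 of PH-CM (FDR 0.0707 to 0.105). In CO-CM it was not called (log2 0.27 ± 0.22, FDR 0.304), but was called higher with the replicate block (log2 0.28, FDR 0.0112). Its neighbour Col5a2 lies 24614 bp away on chromosome 1, tail to tail, and measured 18.9, 15.5 and 19.97 CPM in UNX, 33.0, 24.4 and 29.0 in CO-CM and 34.8, 36.4 and 40.2 in PH-CM. It rose 1.59-fold (log2 0.67 ± 0.12, FDR 0.000565) in CO-CM and 2.05-fold (log2 1.04 ± 0.12, FDR 1.94e-05) in PH-CM, and 1.29-fold (log2 0.37 ± 0.12, FDR 0.0314) from CO-CM to PH-CM. The libraries of the 3 groups did not overlap. The difference between the media was lost without replicate 2 or 3 of CO-CM or 2 or 3 of PH-CM (FDR 0.0644 to 0.11).

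Col5a1, the partner chain of Col5a2 in the collagen that seeds fibrils, measured 11.9, 11.2 and 14.4 CPM in UNX, 19.0, 16.2 and 19.8 in CO-CM and 22.9, 25.2 and 26.9 in PH-CM. It rose 1.46-fold (log2 0.55 ± 0.11, FDR 0.00112) in CO-CM, 1.99-fold (log2 0.99 ± 0.11, FDR 1.26e-05) in PH-CM and 1.36-fold (log2 0.45 ± 0.11, FDR 0.00798) from CO-CM to PH-CM, with no overlap between any pair of groups. The ratio of Col5a2 to Col5a1 in RPKM lay between 1.22 and 1.54 in all libraries. Col5a3, the third type V chain, measured 3.54, 3.94 and 4.09 CPM in UNX, 4.91, 5.11 and 5.53 in CO-CM and 5.58, 7.14 and 8.44 in PH-CM. It rose 1.34-fold (log2 0.42 ± 0.14, FDR 0.0234), 1.82-fold (log2 0.87 ± 0.14, FDR 0.000279) and 1.36-fold (log2 0.44 ± 0.14, FDR 0.0317) in the same order of comparisons. Its groups did not overlap, but the call in CO-CM was lost without replicate 1 or 2 of UNX or 3 of CO-CM (FDR 0.0538 to 0.0838) and that between the media without replicate 1, 2 or 3 of CO-CM or 2 or 3 of PH-CM (FDR 0.0526 to 0.128).

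The type XI chains, best known from cartilage fibrils, were low in UNX and gave the largest rise. Col11a1 (chromosome 3, 114030540 to 114220718, plus strand) measured 0.524, 0.291 and 0.186 CPM in UNX, 0.613, 0.508 and 0.533 in CO-CM and 3.21, 3.25 and 3.63 in PH-CM, on 34, 22 and 16 reads in UNX, 42, 34 and 38 in CO-CM and 216, 202 and 230 in PH-CM. The PH-CM libraries stood apart above all others, and the UNX and CO-CM libraries overlapped. It rose 10.3-fold (log2 3.37 ± 0.28, FDR 1.46e-06) in PH-CM and was 6.08-fold (log2 2.60 ± 0.26, FDR 3.51e-05) above CO-CM. In CO-CM it was also called higher, 1.70-fold (log2 0.77 ± 0.31, FDR 0.0494), a call that was lost without replicate 2 or 3 of UNX or 1, 2 or 3 of CO-CM, with library size alone, with the filterByExpr filter or with counts halved (FDR 0.052 to 0.192). Col11a2 measured 0.632, 0.582 and 0.674 CPM in UNX, 1.31, 1.63 and 1.82 in CO-CM and 1.53, 1.45 and 2.15 in PH-CM. It rose about as much in either medium, 2.52-fold (log2 1.33 ± 0.21, FDR 0.000248) in CO-CM and 2.71-fold (log2 1.44 ± 0.21, FDR 0.00012) in PH-CM, with all treated libraries above UNX and no call between the media (log2 0.10 ± 0.20, FDR 0.716). Col2a1, the main cartilage chain, measured 4.19, 3.15 and 3.37 CPM in UNX, 3.33, 2.36 and 2.69 in CO-CM and 2.70, 3.05 and 3.13 in PH-CM. It was not called in CO-CM (log2 -0.35 ± 0.16, FDR 0.0753) or PH-CM (log2 -0.27 ± 0.16, FDR 0.156). In CO-CM it was called lower with the replicate block (log2 -0.35, FDR 0.0467) and without replicate 2 of UNX or 1 of CO-CM or with library size alone (FDR 0.0232 to 0.0469). Col27a1 stayed below the filter, with 41, 46 and 57 reads in UNX, 40, 30 and 12 in CO-CM and 24, 34 and 46 in PH-CM, and Col24a1 had 0 to 6 reads a library.

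Among the fibril-associated collagens, Col12a1, Col16a1 and Col20a1 passed the filter and rose in both media. Col12a1 (chromosome 9, 79598991 to 79718831, minus strand) measured 7.95, 8.81 and 10.6 CPM in UNX, 11.8, 12.7 and 14.4 in CO-CM and 15.7, 22.8 and 24.9 in PH-CM, with the groups in 3 separate ranges. It rose 1.42-fold (log2 0.50 ± 0.17, FDR 0.0202) in CO-CM, 2.31-fold (log2 1.21 ± 0.17, FDR 6.96e-05) in PH-CM and 1.63-fold (log2 0.71 ± 0.16, FDR 0.00663) from CO-CM to PH-CM, and the first call was lost without replicate 1 or 2 of UNX or 3 of CO-CM (FDR 0.0626 to 0.0769). Col16a1 measured 1.26, 1.61 and 2.28 CPM in UNX, 2.77, 2.52 and 2.47 in CO-CM and 2.54, 2.60 and 3.03 in PH-CM. It rose 1.496-fold (log2 0.58 ± 0.20, FDR 0.0229) in CO-CM and 1.57-fold (log2 0.65 ± 0.20, FDR 0.0118) in PH-CM, with treated libraries above UNX. The CO-CM call was lost without replicate 1 or 2 of UNX or 1 of CO-CM (FDR 0.0619 to 0.0797). Col20a1 measured 0.909, 1.204 and 0.918 CPM in UNX, 2.64, 2.79 and 1.98 in CO-CM and 2.23, 1.70 and 2.32 in PH-CM. It rose 2.44-fold (log2 1.29 ± 0.20, FDR 0.000205) in CO-CM and 2.06-fold (log2 1.04 ± 0.20, FDR 0.000799) in PH-CM, again above UNX in every treated library and with no call between the media (log2 -0.24 ± 0.19, FDR 0.346). Of its exon bases, 1.5% are shared with BX649560.1, an annotated gene on the same strand with 4222 reads, and the counts there are uncertain.

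No rise was called for the fibril-associated chains below the filter. Col14a1 had 104, 64 and 60 reads in UNX, 54, 32 and 58 in CO-CM and 50, 26 and 40 in PH-CM, and in a fit without the filter, over 26930 genes, it was called lower in PH-CM (log2 -0.84 ± 0.30, FDR 0.0242). Col9a3 had 28, 45 and 40 reads in UNX, 38, 51 and 34 in CO-CM and 29, 37 and 44 in PH-CM, and Col19a1 had 0 to 16 reads a library. Neither was called in that fit.

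Of the multiplexins, basement membrane zone collagens that carry endostatin-like domains at their ends, Col18a1 was highest in PH-CM and Col15a1 rose in both media. Col18a1 (chromosome 10, 77052178 to 77166548, minus strand), second to Col1a1 among the collagens in UNX, measured 127, 105 and 109 CPM in UNX, 126, 121 and 116 in CO-CM and 211, 220.5 and 212 in PH-CM. UNX and CO-CM overlapped (log2 0.09 ± 0.07, FDR 0.25), and every PH-CM library lay above both. It rose 1.89-fold (log2 0.91 ± 0.07, FDR 7.72e-07) in PH-CM and was 1.77-fold (log2 0.82 ± 0.07, FDR 1.08e-05) above CO-CM. Col15a1 (chromosome 4, 47208161 to 47313167, plus strand) measured 0.385, 0.529 and 0.511 CPM in UNX, 2.45, 2.47 and 2.02 in CO-CM and 1.93, 1.25 and 1.64 in PH-CM. It rose 4.82-fold (log2 2.27 ± 0.21, FDR 5.43e-06) in CO-CM and 3.36-fold (log2 1.75 ± 0.22, FDR 3.32e-05) in PH-CM. Its PH-CM libraries all lay below those of CO-CM, but the difference was not called (log2 -0.52 ± 0.19, FDR 0.054). It was called with the replicate block (log2 -0.52, FDR 0.04) and without replicate 1 of UNX or 1 of PH-CM, in the exact test, in the DESeq2 Wald test, with upper-quartile factors or with counts halved (FDR 0.0259 to 0.0494).

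Of the basement membrane chains, Col4a5 fell in the treated cultures, most of all in PH-CM. Col4a5 (chromosome X, 141475385 to 141689234, plus strand) measured 14.3, 18.5 and 21.7 CPM in UNX, 9.99, 14.0 and 15.1 in CO-CM and 3.45, 3.44 and 4.55 in PH-CM, on 926, 1396 and 1866 reads in UNX, 684, 938 and 1077 in CO-CM and 232, 214 and 288 in PH-CM. The PH-CM libraries lay below all others, and UNX and CO-CM overlapped. It fell 4.77-fold (log2 -2.25 ± 0.20, FDR 2.45e-06) in PH-CM and was 3.42-fold (log2 -1.77 ± 0.20, FDR 7.33e-05) lower there than in CO-CM. Its fall in CO-CM was 1.39-fold (log2 -0.48 ± 0.18, FDR 0.0366) and was lost without replicate 2 or 3 of UNX or 1 or 2 of CO-CM or with upper-quartile factors (FDR 0.0534 to 0.143). Its head-to-head partner Col4a6 (chromosome X, 141165403 to 141474076, minus strand) was below the filter, with 22, 88 and 96 reads in UNX, 22, 36 and 24 in CO-CM and 6, 10 and 12 in PH-CM. Its PH-CM libraries were again the lowest, and UNX replicate 1 was as low as the CO-CM libraries. In the fit without the filter Col4a6 was called lower in CO-CM (log2 -1.18 ± 0.36, FDR 0.00795), in PH-CM (log2 -2.62 ± 0.41, FDR 6.49e-07) and between the media (log2 -1.44 ± 0.44, FDR 0.0144).

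The pair Col4a1 and Col4a2, the chains of most basement membranes, went the other way in PH-CM. Col4a1 measured 7.27, 4.63 and 6.12 CPM in UNX, 7.59, 4.602 and 6.55 in CO-CM and 9.71, 7.71 and 9.88 in PH-CM. It rose 1.52-fold (log2 0.60 ± 0.20, FDR 0.0186) in PH-CM, while CO-CM overlapped UNX (log2 0.06 ± 0.20, FDR 0.803). The call was lost without replicate 2 of UNX or 1 or 3 of PH-CM (FDR 0.0539 to 0.0738). Col4a2 measured 5.70, 3.136 and 4.32 CPM in UNX, 5.34, 4.35 and 4.603 in CO-CM and 7.53, 5.43 and 6.12 in PH-CM. It rose 1.46-fold (log2 0.54 ± 0.20, FDR 0.0308) in PH-CM, with no call in CO-CM (log2 0.12 ± 0.20, FDR 0.602). Its PH-CM libraries overlapped UNX, and this call was lost without replicate 2 or 3 of UNX or 1 or 3 of PH-CM or with library size alone (FDR 0.0521 to 0.12). Between the media the PH-CM libraries of both genes lay above those of CO-CM, with no call for Col4a1 (log2 0.54 ± 0.20, FDR 0.0554) or Col4a2 (log2 0.42 ± 0.20, FDR 0.128). Col4a1 was called there with the block (log2 0.56, FDR 0.000477) and without replicate 1 or 2 of UNX or 1 of CO-CM, in the exact test, in the DESeq2 Wald test, without the filter or with only these 2 groups in the fit (FDR 0.0036 to 0.0392), and Col4a2 with the block (log2 0.41, FDR 0.0104) and without the filter or with only these 2 groups in the fit (FDR 0.0469 to 0.0489). The other head-to-head pair, Col4a4 and Col4a3 with 71 bp between them on chromosome 1, was near the floor. Col4a4 had 10, 16 and 10 reads in UNX, 14, 14 and 13 in CO-CM and 20, 17 and 16 in PH-CM, Col4a3 had 6, 11 and 16 reads in UNX, 12, 6 and 8 in CO-CM and 19, 8 and 4 in PH-CM, and neither was called without the filter.

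Of the chains of type VI collagen, the beaded filament around cells, Col6a3 rose in PH-CM while Col6a1 and Col6a2 were not called. Col6a1 measured 10.8, 15.8 and 19.3 CPM in UNX, 7.33, 10.4 and 13.9 in CO-CM and 8.51, 13.5 and 16.0 in PH-CM, and Col6a2, which lies 85161 bp away on chromosome 10 in the same direction, measured 8.66, 10.9 and 14.0 CPM in UNX, 6.02, 8.91 and 9.15 in CO-CM and 6.59, 10.7 and 12.4 in PH-CM. The groups overlapped for both, and neither was called in CO-CM (log2 -0.54 ± 0.28, FDR 0.115 and log2 -0.48 ± 0.25, FDR 0.104), in PH-CM (log2 -0.27 ± 0.28, FDR 0.399 and log2 -0.18 ± 0.25, FDR 0.515) or between the media (log2 0.26 ± 0.29, FDR 0.502 and log2 0.30 ± 0.25, FDR 0.373). The spread within groups followed the replicate number, and with the replicate block both were called lower in CO-CM (log2 -0.54, FDR 1.29e-05 and log2 -0.48, FDR 0.000447) and higher in PH-CM than in CO-CM (log2 0.27, FDR 0.00468 and log2 0.29, FDR 0.0194), and Col6a1 lower in PH-CM (log2 -0.27, FDR 0.00175). Col6a1 was also called lower in CO-CM without replicate 1 of UNX or 3 of CO-CM or without the filter (FDR 0.00307 to 0.043), and Col6a2 without replicate 1 of UNX or 1 of PH-CM or without the filter (FDR 0.00413 to 0.0483). Col6a3, which completes the type VI trimer, measured 15.0, 12.9 and 16.5 CPM in UNX, 16.6, 12.7 and 14.4 in CO-CM and 18.1, 21.4 and 23.7 in PH-CM. It rose 1.42-fold (log2 0.51 ± 0.13, FDR 0.00419) in PH-CM and was 1.45-fold (log2 0.54 ± 0.13, FDR 0.00792) above CO-CM, with no call in CO-CM (log2 -0.03 ± 0.13, FDR 0.865). Col6a4, below the filter, had 24, 29 and 38 reads in UNX, 20, 24 and 16 in CO-CM and 12, 10 and 19 in PH-CM.

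The remaining collagens were low, and Col7a1 and Col23a1 passed the filter only through the groups where they were high. Col7a1, the chain of anchoring fibrils, measured 0.801, 0.688 and 1.06 CPM in UNX, 0.847, 0.897 and 0.758 in CO-CM and 1.41, 1.22 and 1.33 in PH-CM, with every PH-CM library above the others. It rose 1.55-fold (log2 0.63 ± 0.19, FDR 0.0125) in PH-CM and was 1.58-fold (log2 0.66 ± 0.20, FDR 0.0216) above CO-CM, and these calls were lost without replicate 2 of UNX or without the filter (FDR 0.0515 to 0.0525) and without replicate 3 of CO-CM or 1 or 3 of PH-CM or without the filter (FDR 0.0532 to 0.075). In CO-CM it was not called (log2 -0.03 ± 0.20, FDR 0.888). Col8a1, a network collagen of vessel walls, measured 2.22, 2.01 and 2.37 CPM in UNX, 3.52, 1.91 and 2.67 in CO-CM and 3.0, 2.51 and 3.67 in PH-CM. It was not called in CO-CM (log2 0.29 ± 0.22, FDR 0.252) or PH-CM (log2 0.47 ± 0.22, FDR 0.0716). In PH-CM it was called higher with the replicate block (log2 0.46, FDR 0.0234) and without replicate 1 or 2 of CO-CM or 2 of PH-CM or with only these 2 groups in the fit (FDR 0.0302 to 0.0434). Col23a1, a transmembrane collagen, measured 1.36, 1.32 and 1.12 CPM in UNX, 1.02, 1.17 and 0.842 in CO-CM and 0.653, 0.804 and 0.348 in PH-CM. Its PH-CM libraries lay below all others and it fell 2.09-fold (log2 -1.07 ± 0.27, FDR 0.00429), with no call in CO-CM (log2 -0.32 ± 0.25, FDR 0.276) or between the media (log2 -0.74 ± 0.28, FDR 0.0556). Between the media it was called lower with the block (log2 -0.76, FDR 0.0136) and without replicate 2 of PH-CM, in the exact test, in the DESeq2 Wald test or with upper-quartile factors (FDR 0.0155 to 0.0439). Col10a1, Col17a1 and Col28a1 had 0 to 8 reads a library.

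**Figure D4:**
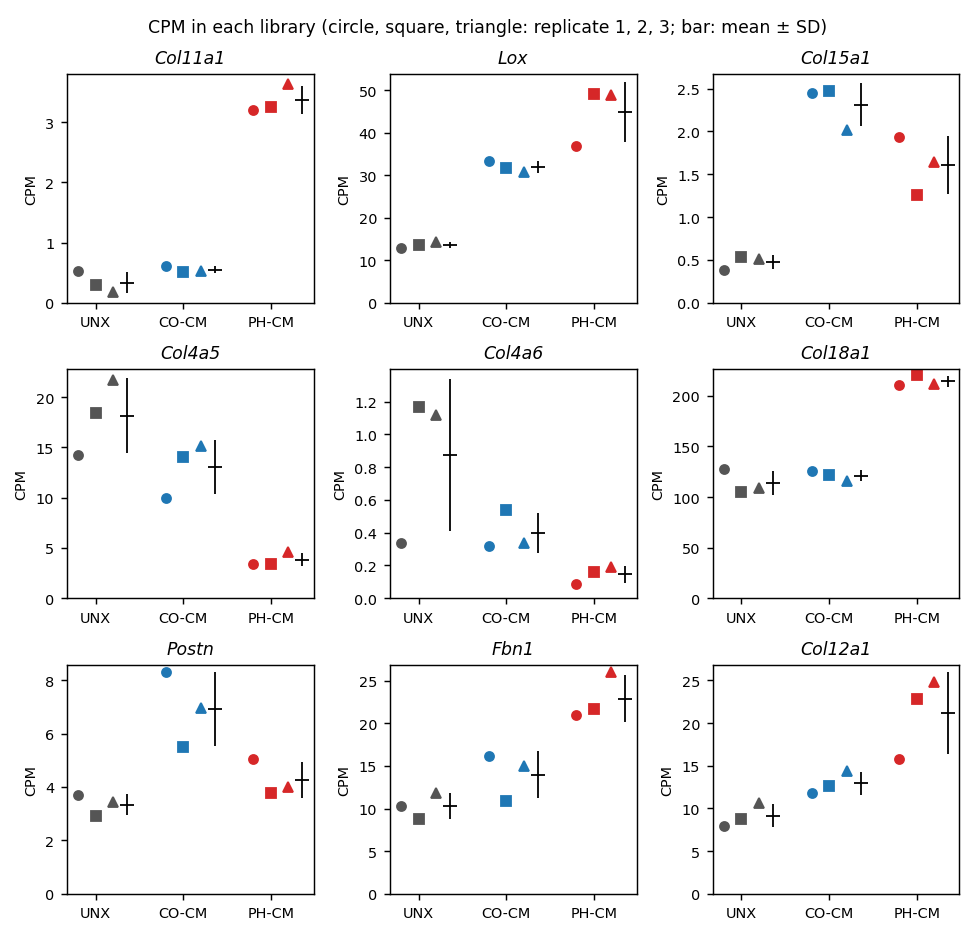
CPM in each library for 9 genes, with the mean and SD (n = 3) of each group as a bar and replicates 1, 2 and 3 as circles, squares and triangles. Col11a1, Col18a1, Fbn1 and Col12a1 are highest in all 3 PH-CM libraries, Col4a5 and Col4a6 are lowest there, and Col15a1 and Postn are highest in CO-CM.

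The enzyme that cross-links collagen and elastin rose in both media. Lox, lysyl oxidase, measured 12.9, 13.7 and 14.3 CPM in UNX, 33.4, 31.7 and 30.7 in CO-CM and 36.8, 49.1 and 48.9 in PH-CM, with the 3 groups in separate ranges. It rose 2.34-fold (log2 1.23 ± 0.10, FDR 2.62e-06) in CO-CM, 3.29-fold (log2 1.72 ± 0.10, FDR 1.61e-07) in PH-CM and 1.41-fold (log2 0.49 ± 0.10, FDR 0.00336) from CO-CM to PH-CM. Set against Col1a1, both in RPKM, the ratio was 0.164 ± 0.021 in UNX, 0.301 ± 0.037 in CO-CM and 0.415 ± 0.025 in PH-CM (SD, n = 3). Its relative Loxl1, which acts mainly on elastin, measured 8.11, 8.68 and 9.79 CPM in UNX, 10.9, 9.21 and 11.2 in CO-CM and 11, 10.6 and 12.4 in PH-CM. It rose 1.28-fold (log2 0.36 ± 0.10, FDR 0.00996) in PH-CM, and was not called in CO-CM (log2 0.23 ± 0.10, FDR 0.0662) except without replicate 3 of UNX or 2 of CO-CM or with upper-quartile factors (FDR 0.0234 to 0.0437). Fbn1 (chromosome 2, 125300594 to 125507993, minus strand), which encodes the microfibril protein fibrillin, measured 10.3, 8.77 and 11.8 CPM in UNX, 16.1, 10.9 and 15.0 in CO-CM and 21.0, 21.7 and 26.0 in PH-CM. It rose 1.36-fold (log2 0.44 ± 0.16, FDR 0.0268) in CO-CM, 2.22-fold (log2 1.15 ± 0.15, FDR 5.83e-05) in PH-CM and 1.64-fold (log2 0.71 ± 0.15, FDR 0.00431) from CO-CM to PH-CM. CO-CM replicate 2 lay within UNX, and the CO-CM call was lost without replicate 1 or 2 of UNX or 1 or 3 of CO-CM or with library size alone (FDR 0.0578 to 0.111). Of its exon bases, 20.1% lie over an antisense gene (Gm9913, 16 reads), and the counting did not use strand.

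Of the small leucine-rich proteoglycans, which bind collagen fibrils, biglycan was the best covered. Bgn measured 30.6, 29.2 and 37.4 CPM in UNX, 47.2, 36.0 and 47.5 in CO-CM and 49.2, 46.2 and 54.5 in PH-CM. It rose 1.34-fold (log2 0.43 ± 0.12, FDR 0.00974) in CO-CM, where replicate 2 lay within UNX, and 1.54-fold (log2 0.62 ± 0.12, FDR 0.000839) in PH-CM, where all libraries lay above it. No difference between the media was called (log2 0.20 ± 0.12, FDR 0.223). Dcn measured 0.709, 2.51 and 1.56 CPM in UNX, 1.14, 2.24 and 1.6 in CO-CM and 1.69, 3.15 and 2.37 in PH-CM. It was not called in CO-CM (log2 0.05 ± 0.41, FDR 0.926), PH-CM (log2 0.58 ± 0.40, FDR 0.212) or between the media (log2 0.53 ± 0.40, FDR 0.329). Replicate 2 was its highest library in every group. With the replicate block it was called higher in PH-CM than in UNX (log2 0.65, FDR 0.00634) and than in CO-CM (log2 0.54, FDR 0.0274), and without UNX replicate 2 it was called higher in PH-CM (FDR 0.0369). Lum, its neighbour 46984 bp away on chromosome 10, had 0 to 4 reads a library.

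Of the matricellular genes, whose secreted products bind matrix and cells without building fibres, Sparc and Fstl1 rose in both media and Postn rose in CO-CM. Sparc measured 25.8, 23.5 and 29.4 CPM in UNX, 35.4, 33.3 and 37.4 in CO-CM and 44.0, 41.0 and 46.2 in PH-CM. It rose 1.35-fold (log2 0.43 ± 0.08, FDR 0.000999) in CO-CM, 1.67-fold (log2 0.74 ± 0.08, FDR 1.76e-05) in PH-CM and 1.24-fold (log2 0.31 ± 0.08, FDR 0.0153) from CO-CM to PH-CM. Its groups did not overlap, and the last call was lost without replicate 2 of CO-CM or 3 of PH-CM (FDR 0.0584 to 0.06). Fstl1 measured 10.9, 9.09 and 11.9 CPM in UNX, 18.3, 17.0 and 19.9 in CO-CM and 17.8, 20.3 and 21.2 in PH-CM. It rose 1.73-fold (log2 0.79 ± 0.11, FDR 7.83e-05) in CO-CM and 1.86-fold (log2 0.89 ± 0.11, FDR 2.62e-05) in PH-CM, with every treated library above UNX and no call between the media (log2 0.10 ± 0.11, FDR 0.489). Postn, periostin, stood highest in CO-CM. Postn (chromosome 3, 54361109 to 54391037, plus strand) measured 3.70, 2.91 and 3.42 CPM in UNX, 8.29, 5.50 and 6.95 in CO-CM and 5.05, 3.76 and 3.98 in PH-CM. It rose 2.07-fold (log2 1.05 ± 0.17, FDR 0.00029) in CO-CM and was 1.62-fold (log2 -0.70 ± 0.17, FDR 0.00873) lower in PH-CM than in CO-CM. All PH-CM libraries lay above UNX, yet the difference was not called (log2 0.35 ± 0.17, FDR 0.088), and it was with the replicate block (log2 0.35, FDR 0.0086).

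Of the genes of contractile and mesenchymal cells, Acta2 and Pdgfra rose in PH-CM and Pdgfrb was not called. Acta2 (chromosome 19, 34241090 to 34255590, minus strand) measured 41.6, 30.4 and 40.2 CPM in UNX, 47.0, 29.2 and 41.4 in CO-CM and 59.3, 51.4 and 63.9 in PH-CM. It rose 1.56-fold (log2 0.64 ± 0.17, FDR 0.00551) in PH-CM and 1.48-fold (log2 0.57 ± 0.17, FDR 0.022) from CO-CM to PH-CM, with no call in CO-CM (log2 0.07 ± 0.17, FDR 0.731). The call between the media was lost without replicate 2 of CO-CM or 1 or 3 of PH-CM (FDR 0.0523 to 0.0776). Actin genes have near-identical coding sequence, so Acta2 counts are uncertain where reads could belong to another actin, and its close relative Actg2 was also called higher in PH-CM. Pdgfra, a receptor of PDGF on mesenchymal cells, measured 1.43, 1.72 and 2.13 CPM in UNX, 2.76, 1.99 and 2.01 in CO-CM and 2.73, 2.15 and 2.72 in PH-CM. It rose 1.43-fold (log2 0.52 ± 0.20, FDR 0.0327) in PH-CM, a call lost without replicate 1 or 2 of UNX or 1 or 3 of PH-CM or with library size alone (FDR 0.055 to 0.112). Pdgfrb, the receptor typical of pericytes, measured 3.91, 3.49 and 4.30 CPM in UNX, 4.86, 3.20 and 4.24 in CO-CM and 5.50, 3.86 and 3.70 in PH-CM. It was not called in CO-CM (log2 0.07 ± 0.19, FDR 0.754), PH-CM (log2 0.16 ± 0.19, FDR 0.468) or between the media (log2 0.09 ± 0.19, FDR 0.754). Thy1, a surface marker of fibroblasts, had 0 to 16 reads a library, and its highest value was in PH-CM replicate 3.

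Part of the variation of these genes followed the replicate number. In the fit with the replicate block, the replicate number was itself a called term (FDR at most 0.05) for 15 of the 34 genes (44.1%), where it was called for 19.3% of all genes tested. The library numbered 3 was the highest in every group for 13 genes (38.2%), where this held for 7.53% of all genes. The library numbered 1 was the lowest in every group for 6 (17.6%, against 16.4% of all genes) and the library numbered 2 for 7 (20.6%, against 9.57%). The test was added after these values had been seen. The study's methods say that the experiment was repeated 3 times, but neither they nor the labels say what a replicate number stands for.

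Col6a1, Col6a2, Col3a1 and Dcn were among the genes that differed by number. Col6a1 had the lowest FDR, with differences of replicates 2 and 3 from replicate 1 of log2 0.58 and 0.89, FDR 8.14e-05. Col6a2 showed log2 0.53 and 0.74, FDR 0.00157, and Col3a1 log2 0.53 and 0.64, FDR 0.00213. Dcn was highest in replicate 2 (log2 1.19 and 0.66, FDR 0.00581). Acta2 (log2 -0.45 and -0.04, FDR 0.0044) and Col4a1 (log2 -0.56 and -0.14, FDR 0.00656) were lowest in it. The type I chains had smaller differences, log2 0.05 and 0.31, FDR 0.0176 for Col1a1 and log2 0.06 and 0.31, FDR 0.00263 for Col1a2. The ratio of Col6a2 to Col6a1, in RPKM, nevertheless stayed between 0.345 and 0.452 over all libraries, while that of Col6a3 to Col6a1 ranged from 0.300 to 0.827.

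**Figure D5:**
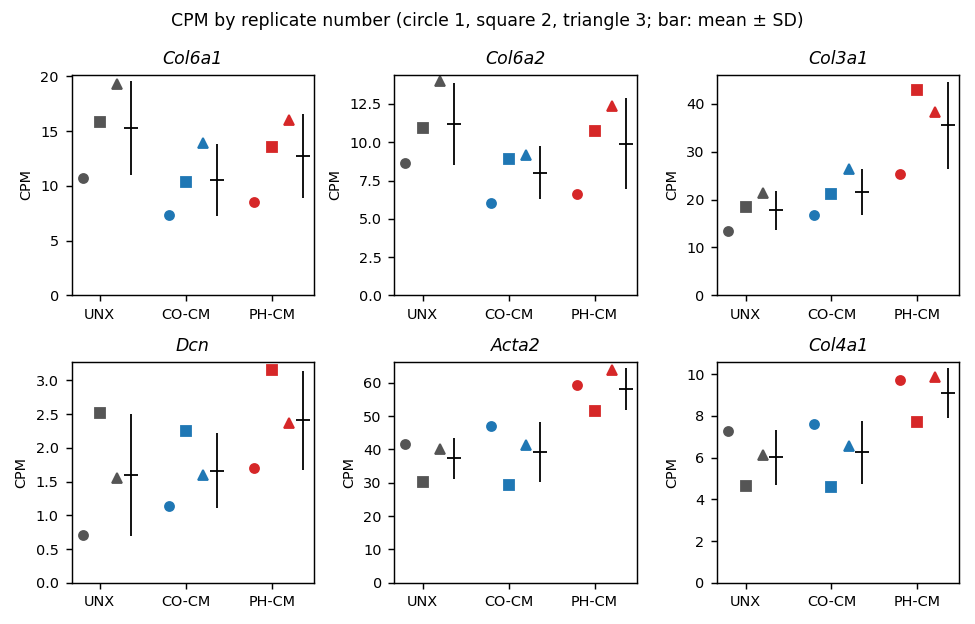
CPM of 6 genes in each library, with circles, squares and triangles for replicates 1, 2 and 3 and the mean and SD (n = 3) of each group as a bar. Col6a1 and Col6a2 are lowest in replicate 1 and highest in replicate 3 of every group, Dcn is highest in replicate 2, and Acta2 and Col4a1 are lowest in replicate 2.

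The machinery that makes collagen was largely expressed in these cultures, with calls in both directions. Of 20 genes of collagen folding and modification, 16 were tested, with 5 called higher and 2 lower in CO-CM, 6 and 4 in PH-CM, and 3 and 2 between the media, at median log2 fold changes of 0.19, 0.02 and 0.04. Over all genes tested 28.0% were called higher and 28.9% lower in CO-CM, 31.3% and 31.7% in PH-CM, and 12.2% and 15.0% between the media, and the shares of the list called higher were near these. The lysyl hydroxylase Plod1 measured 378, 371 and 361 CPM in UNX, 253, 259 and 257.5 in CO-CM and 326, 365 and 345 in PH-CM. It fell 1.44-fold (log2 -0.53 ± 0.05, FDR 4.97e-06) in CO-CM, with all libraries below the other groups, and was not called in PH-CM (log2 -0.10 ± 0.05, FDR 0.0829). Plod3, of the same enzyme family, rose 1.34-fold (log2 0.42 ± 0.06, FDR 0.000102) in CO-CM and 1.39-fold (log2 0.48 ± 0.06, FDR 3.45e-05) in PH-CM. The galactosyltransferase Colgalt1 rose 1.22-fold (log2 0.28 ± 0.07, FDR 0.0061) in CO-CM and fell 1.24-fold (log2 -0.31 ± 0.07, FDR 0.00319) in PH-CM. The prolyl hydroxylase subunit P4ha2 fell 1.67-fold (log2 -0.74 ± 0.13, FDR 0.000547) in CO-CM and was not called in PH-CM (log2 0.03 ± 0.13, FDR 0.866), and Crtap fell 1.21-fold (log2 -0.27 ± 0.06, FDR 0.00115) in PH-CM.

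Of 14 genes of collagen secretion and propeptide removal, 10 were tested, with 3 called higher in CO-CM, 4 in PH-CM and 1 between the media, and none of the 10 called lower by edgeR, though 1, 1 and 0 were lower at an unadjusted p under 0.05 (Sar1a in CO-CM and Sec24d in PH-CM, named after their values were seen). The counts of higher genes were near the 28.0%, 31.3% and 12.2% of all genes tested. Of all genes tested, 28.9%, 31.7% and 15.0% were called lower in the same comparisons. The procollagen C-proteinase Bmp1 rose 1.32-fold (log2 0.40 ± 0.12, FDR 0.011) in CO-CM and 1.54-fold (log2 0.63 ± 0.12, FDR 0.000673) in PH-CM, and its enhancer Pcolce 1.37-fold (log2 0.46 ± 0.16, FDR 0.0232) in CO-CM and 1.58-fold (log2 0.66 ± 0.16, FDR 0.00285) in PH-CM. Klhl12, an adaptor for the large transport vesicles of collagen, rose 1.41-fold (log2 0.50 ± 0.08, FDR 0.000275) in CO-CM and 1.94-fold (log2 0.96 ± 0.08, FDR 1.66e-06) in PH-CM. Mia3, which loads collagen at exit sites, rose 1.31-fold (log2 0.39 ± 0.05, FDR 1.97e-05) in PH-CM and was under the fold threshold in CO-CM (log2 0.24 ± 0.05, FDR 0.000791).

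The genes by which cells bind or take up collagen were called no more often than genes in general in the comparisons with UNX. Of 12, 8 were tested, with 1 called higher and 2 lower in CO-CM (57.0% of all genes tested were called in either direction), 2 and 3 in PH-CM (63.0%), and 2 and 1 between the media (27.1%). Lair1, an inhibitory collagen receptor of immune cells, measured 145, 136 and 139 CPM in UNX, 106, 109.7 and 116 in CO-CM and 33.7, 32.6 and 35.1 in PH-CM. It fell 1.26-fold (log2 -0.34 ± 0.05, FDR 0.000119) in CO-CM and 4.14-fold (log2 -2.05 ± 0.05, FDR 1.26e-09) in PH-CM, and the 3 groups lay apart. Mrc1, the mannose receptor, which takes up collagen and its fragments, fell 5.18-fold (log2 -2.37 ± 0.09, FDR 1.02e-08) in CO-CM and 1.59-fold (log2 -0.67 ± 0.08, FDR 3.43e-05) in PH-CM. Itga1, a collagen-binding integrin chain, rose 2.43-fold (log2 1.28 ± 0.17, FDR 8.16e-05) in CO-CM and 46.1-fold (log2 5.53 ± 0.15, FDR 1.28e-09) in PH-CM, from 0.405 ± 0.041 CPM in UNX (SD, n = 3). Itga1 passed the filter only through the treated groups, where it was high, so that it had to differ to be tested. Its partner Itgb1 fell 1.26-fold (log2 -0.33 ± 0.04, FDR 5.52e-05) in PH-CM, and the collagen receptor kinase Ddr2 rose 1.504-fold (log2 0.59 ± 0.15, FDR 0.0046) there.

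Other structural genes of the matrix were called higher more often than lower. Of 36 on the list, 18 were tested, with 9 called higher and 3 lower in CO-CM (28.0% and 28.9% of all genes tested), 13 and 3 in PH-CM (31.3% and 31.7%), and 10 and 2 between the media (12.2% and 15.0%), at median log2 fold changes of 0.29, 0.50 and 0.37. Fn1, fibronectin, rose 1.24-fold (log2 0.31 ± 0.08, FDR 0.00794) in CO-CM and 1.24-fold (log2 0.31 ± 0.08, FDR 0.00639) in PH-CM, at group means of 132.6, 164.0 and 164.7 CPM. Ecm1 measured 76.3, 91.6 and 90.7 CPM in UNX, 149.8, 184 and 165.5 in CO-CM and 212, 247 and 245 in PH-CM. It rose 1.93-fold (log2 0.95 ± 0.09, FDR 8.35e-06) in CO-CM and 2.72-fold (log2 1.45 ± 0.10, FDR 2.78e-07) in PH-CM. Emilin2, an elastic fibre glycoprotein, fell 1.52-fold (log2 -0.60 ± 0.06, FDR 8.18e-06) in CO-CM and rose 1.39-fold (log2 0.47 ± 0.06, FDR 3.69e-05) in PH-CM, while Emilin1 rose 1.47-fold (log2 0.56 ± 0.05, FDR 2.9e-06) in CO-CM and 1.29-fold (log2 0.37 ± 0.05, FDR 5.06e-05) in PH-CM. The laminin chain Lamc1 rose 1.24-fold (log2 0.31 ± 0.06, FDR 0.00122) in PH-CM and was not called in CO-CM (log2 0.03 ± 0.06, FDR 0.656).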

How the data were processed

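RNA-Seq was analysed for 9 libraries of mouse BMDMs, 3 each of UNX, CO-CM and PH-CM, with groups and replicate numbers taken from the sample labels. The authors checked reads with FastQC 0.11.5, trimmed with AfterQC, used STAR 2.6.0c to align to the Ensembl GRCm38 genome and counted reads on exons per gene with featureCounts 1.6.2, with no strand option stated. The deposited counts are not normalized. The RPKM values that the authors deposited divide them by exon length and by each library's counted reads, with no composition factor. The deposited comparison tables hold the authors' own log2 fold changes, p-values and FDR and were not used. No per-sample column was left unmapped.

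The 11950 genes that exceeded 1 CPM in 3 or more libraries were scaled by TMM and fitted together by the quasi-likelihood method of edgeR 4.0.16 (R 4.3.3), with a mean per group and no block. FDR is the Benjamini-Hochberg value over all genes tested, and ± after a log2 fold change is its standard error. Calls needed an FDR up to 0.05 and a change of 1.2-fold or more. The fit was tested on simulated data with 200 changed genes. The simulation held far fewer changes than were called here and no effect of replicate number, so it does not test the fit under those conditions. The members and gene lists were chosen with earlier results of these data known. Every one of the 48 genes could be named, and from each list the called genes with the highest mean CPM in any group, at most 5 a list. Some items are not reported here. For members below the filter, reads per library are given from 50 reads in all. Actg2, Prrx1, Nes and other cell type markers were named after their values were seen. Gene positions, exons and overlaps come from GENCODE vM21 (GRCm38). Depth was 62017933 to 84314201 counted reads a library, so the spread between cultures sets the precision for all but the lowest genes.

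Alternatives were the edgeR exact test, DESeq2 1.42.0, other size factors, filters and fold thresholds, a fit of only the 2 groups compared, counts halved, the replicate block and each library left out. Libraries with the same number were treated as pairs in that block, because across genes the correlation of their departures from the group means was 0.276 to 0.484 in each of 9 same-number pairs and -0.376 to 0.0423 between different numbers. Genes are not independent replicates, and the labels do not say what a number stands for. The p-values set a difference between groups against the spread between these cultures, which nothing in the labels ties to separate animals. In the main fit, which has no block, that spread includes the differences between replicate numbers.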

Additional observations from a re-analysis of the deposited data

How the results depend on the processing

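Over 2022 values of single genes in the alternatives, no call reversed its direction. Of the calls made, 11 of 18 in CO-CM against UNX, 22 of 27 in PH-CM against UNX and 9 of 15 between the media held in every alternative in which the gene was tested, leaving out the fold threshold. In PH-CM against UNX, Col11a1 was tested in 17 alternatives and Col23a1 in 19, where a gene tested in all had 20. Col11a1 exceeded 1 CPM only in the PH-CM libraries, so without any 1 of them it fell below the filter. Its calls in both comparisons with PH-CM were therefore not tested by leaving out a PH-CM library. A fold change threshold of 2 left 1655, 2153 and 612 genes called in the 3 comparisons. Of the stromal genes, 5, 8 and 1 were then higher (6.00%, 8.22% and 2.81% of all genes). In CO-CM 0 were lower (7.85%) and between the media 1 was (2.31%). The few stromal genes called lower in CO-CM numbered 0 of 34 with upper-quartile factors, where 25.2% of all genes were called lower. They numbered 2 of 34 with library size alone (33.5%), 4 of 48 without the filter (15.2%) and 2 of 41 with filterByExpr (25.2%). In PH-CM against UNX they numbered 4 of 48 without the filter (16.9%), 4 of 41 with filterByExpr (28.1%) and 1 of 32 with a filter on mean CPM (31.7%). Between the media they numbered 4 of 34 in the exact test (15.6%), in DESeq2 (15.8%) and with upper-quartile factors (17.2%). With the replicate block, which pairs the libraries by number, 4 were lower in CO-CM (29.7%), 3 in PH-CM (32.4%) and 4 between the media (16.4%), and no call was lost. Leaving out 1 library gave 11 to 17 higher and 0 to 3 lower in CO-CM (25.8% to 27.9% and 27.9% to 29.9% of all genes). It gave 20 to 26 higher in PH-CM (30% to 31.6%) and 6 to 14 higher between the media (10.5% to 13.2%). The summed CPM without Col18a1, the most abundant of the genes over all libraries, was 487.8 in UNX, 625.9 in CO-CM and 727.5 in PH-CM. In deposited RPKM the sum was 105.2 in UNX, 121.5 in CO-CM and 157.6 in PH-CM, so the rise in CO-CM was smaller on that scale. Upper-quartile factors shifted the median log2 fold change of all genes in CO-CM to 0.07 and library size alone to -0.07. The 14 genes below the filter are limited by depth as well as by the spread between cultures.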

Other observations

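Genes of the TGF-beta pathway, which drives collagen synthesis in many cell types, were called higher more often than lower. Of 20 on the list, 19 were tested, with 8 higher and 2 lower in CO-CM, 11 and 0 in PH-CM, and 7 and 1 between the media. Over all genes tested, 28.0%, 31.3% and 12.2% were called higher and 28.9%, 31.7% and 15.0% lower. The count of 0 is from the edgeR quasi-likelihood test, and 1 gene was lower in PH-CM at an unadjusted p under 0.05, Smad2, which passed the FDR and missed the fold threshold (log2 -0.25 ± 0.04, FDR 0.000278). The receptor Tgfbr1 measured 88.7, 80.4 and 85.0 CPM in UNX, 232, 193 and 197 in CO-CM and 158, 134 and 140.3 in PH-CM. It rose 2.45-fold (log2 1.29 ± 0.08, FDR 3.12e-07) in CO-CM and 1.70-fold (log2 0.77 ± 0.08, FDR 1.01e-05) in PH-CM, and was 1.44-fold (log2 -0.53 ± 0.08, FDR 0.000571) lower in PH-CM than in CO-CM. The negative regulators Skil and Tgif1 rose in both media, Skil 2.56-fold (log2 1.36 ± 0.28, FDR 0.00147) in CO-CM and 3.09-fold (log2 1.63 ± 0.28, FDR 0.000392) in PH-CM and Tgif1 2.21-fold (log2 1.14 ± 0.06, FDR 5.12e-08) in CO-CM and 2.44-fold (log2 1.29 ± 0.06, FDR 1.3e-08) in PH-CM. Smad2 fell 1.30-fold (log2 -0.38 ± 0.04, FDR 1.67e-05) in CO-CM.

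The PDGF ligands, which act on Pdgfra and Pdgfrb, were called in both directions. Of 4, 3 were tested, with 2 called higher and 0 lower in CO-CM, 2 and 1 in PH-CM, and 0 and 1 between the media, where 57.0%, 63.0% and 27.1% of all genes tested were called in either direction. Pdgfc measured 5.32, 5.86 and 5.66 CPM in UNX, 25.0, 24.0 and 23.4 in CO-CM and 19.1, 22.4 and 19.1 in PH-CM. It rose 4.30-fold (log2 2.10 ± 0.08, FDR 1.28e-08) in CO-CM and 3.60-fold (log2 1.85 ± 0.08, FDR 1.48e-08) in PH-CM. Pdgfa rose 1.30-fold (log2 0.38 ± 0.07, FDR 0.000868) in CO-CM and 1.33-fold (log2 0.41 ± 0.07, FDR 0.000445) in PH-CM. Pdgfb measured 35.5, 25.3 and 25.4 CPM in UNX, 30.9, 40.7 and 36.7 in CO-CM and 12.7, 14.8 and 11.8 in PH-CM. It fell 2.19-fold (log2 -1.13 ± 0.15, FDR 5.14e-05) in PH-CM, with no call in CO-CM (log2 0.33 ± 0.14, FDR 0.0626).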
